A study of Fragaria vesca with 18 samples.

Results

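RNA depleted of polyadenylated molecules (poly(A)-depleted) was set against RNA depleted of ribosomal RNA (rRNA-depleted) in immature fruit of the woodland strawberry Fragaria vesca, at the stage when the achenes, the seed-like true fruits that dot its surface, are green. The comparison used 6 of the 18 libraries of the series, 3 poly(A)-depleted and 3 rRNA-depleted, chosen by the stage and the kind of RNA that their labels give. The same 2 kinds of library were made from fruit with yellow and with brown achenes, 3 of each per stage. All plants were the Hawaii4 accession grown in a greenhouse. Each replicate pooled fruit of at least 5 plants, and the labels name TRIzol for extraction and the Illumina HiSeq platform for stranded paired-end sequencing. No treatment or mutation distinguished the groups other than the RNA that was removed before sequencing.

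Most messenger RNAs of the nucleus receive a poly(A) tail, a run of adenosines added to the 3′ end after cleavage, which is used in export, stability and translation. Long noncoding RNAs (lncRNAs) are long transcripts with no annotated protein product, and some carry such a tail while others do not. Removing ribosomal RNA leaves both tailed and untailed RNA in a library, whereas removing polyadenylated RNA is meant to leave mainly untailed molecules. A row's relative level in the 2 kinds of library compares these preparations. It does not measure how the row's RNA divides between tailed and untailed molecules, because the completeness of each removal was not tested.

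The deposited table gives whole-number read counts for 61763 rows in 5 classes, read here from the prefix of each row name: 28588 annotated genes (FvH4), 19247 intergenic lncRNAs (LINC), 12662 lncRNAs antisense to exons (exonAS), 821 antisense to introns (intronAS) and 445 intronic lncRNAs in sense (INTRONIC). Gene IDs could not be paired with names, since 0 of 28588 matched a reference row, so genes are given by ID, their functions are not described, and the labelled tissue could not be checked against fruit markers. The 3 poly(A)-depleted green libraries held 16.0, 15.7 and 16.6 M counts and the 3 rRNA-depleted ones 62.6, 76.9 and 57.1 M. Correlations of log2 CPM (a row's counts relative to all counts of its library) were 0.963 to 0.986 between libraries of one kind and 0.875 to 0.922 between kinds. The 10 most abundant rows took 4.0 to 5.25% of a poly(A)-depleted library and 12.7 to 17.8% of an rRNA-depleted one. Because a fruit holds many cell types, a smaller number of cells of one type and less RNA per cell cannot be told apart in these values.

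The scaling decides where 0 lies in this comparison, because the kinds of library differ in which fraction of the RNA was removed. The values below use TMM factors (trimmed mean of M-values) over all rows tested, which were 1.36, 1.42 and 1.30 in the poly(A)-depleted and 0.703, 0.747 and 0.758 in the rRNA-depleted libraries. Under this scaling the median log2 fold change, poly(A)-depleted over rRNA-depleted, was 0.19 over all 48202 rows tested. The median was 0.07 with median-of-ratios size factors, 0.52 with TMM factors from annotated genes only and 1.08 with library size only. Relative to the TMM values, these scalings moved the rows by a median of -0.12, 0.33 and 0.89 on the log2 scale. Differences between classes within one fit do not move with this choice and are given beside each direction.

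Intergenic lncRNAs took a larger part of the poly(A)-depleted libraries. They held 6.77, 7.28 and 5.70% of counts in the 3 poly(A)-depleted libraries, against 1.94, 2.08 and 1.87% in the 3 rRNA-depleted ones. The groups did not overlap, and the mean share was 6.58% ± 0.806 in poly(A)-depleted RNA and 1.96% ± 0.105 in rRNA-depleted RNA (SD, n = 3 each), a ratio of 3.36. Intronic sense lncRNAs held 0.0980% ± 0.0106 of counts in poly(A)-depleted RNA and 0.0337% ± 0.000491 in rRNA-depleted RNA, a ratio of 2.90. Intronic antisense lncRNAs held 0.223% ± 0.00952 in poly(A)-depleted RNA and 0.121% ± 0.00113 in rRNA-depleted RNA, a ratio of 1.85.

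Exonic antisense lncRNAs had the opposite order, with 20.0% ± 0.129 of counts in poly(A)-depleted RNA and 23.3% ± 0.803 in rRNA-depleted RNA. For each of these 4 lncRNA classes the libraries of the 2 kinds did not overlap, and a two-sided exact permutation test gave p = 0.1, the smallest that 3 against 3 libraries allow. Annotated genes held 73.1% ± 0.700 in poly(A)-depleted RNA and 74.6% ± 0.749 in rRNA-depleted RNA, which overlapped (exact p = 0.2, unpaired). Between libraries of equal number the gene share was 72.9% in poly(A)-depleted RNA and 73.8% in rRNA-depleted RNA for replicate 1, 72.5 and 75.2% for replicate 2, and 73.9 and 74.8% for replicate 3, lower in poly(A)-depleted RNA each time. The plot of class shares by library shows the 3 intergenic and intronic classes on the high side in all 3 poly(A)-depleted libraries.

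**Figure D1:**
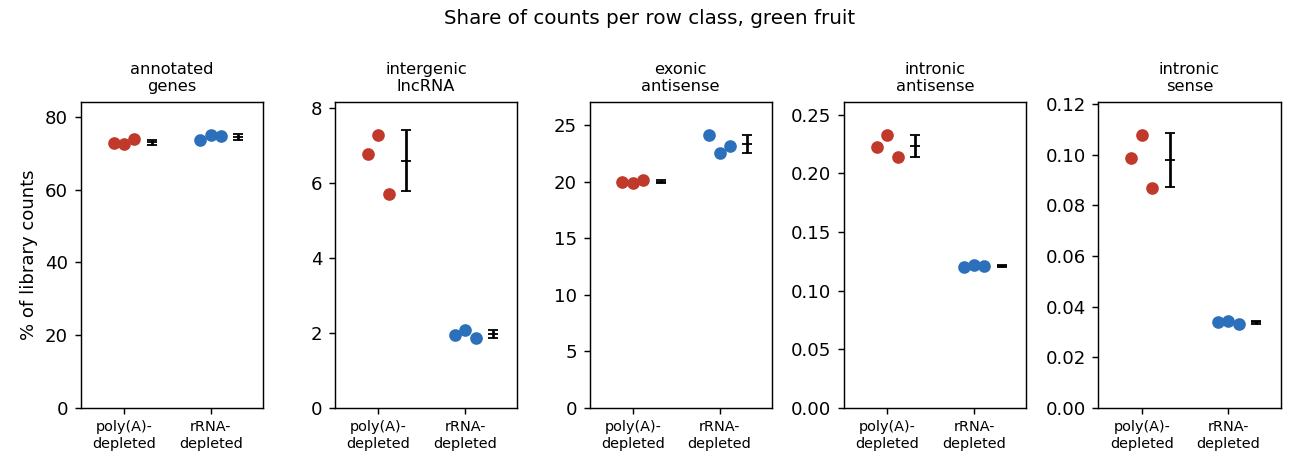
Share of library counts (%, linear axes from 0) held by each class of row, 1 panel per class; points are the 3 libraries of each kind and the bar beside them is mean ± SD, poly(A)-depleted left of rRNA-depleted. Intergenic lncRNAs held 5.70 to 7.28% of poly(A)-depleted and 1.87 to 2.08% of rRNA-depleted libraries.

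A single antisense row carried most of the lower exonic antisense share. exonAS.XLOC_011569 (chromosome 3, 13172900 to 13178274 in the authors' transcript file, minus strand, 1 exon of 5375 bases) took 1.24, 0.719 and 0.969% of counts in the poly(A)-depleted libraries. It took 7.34, 4.80 and 5.53% in the rRNA-depleted libraries, so the groups lay far apart. Its counts equalled those of the annotated gene FvH4_3g20030 to within a ratio of 1.00028 to 1.00278 in every green library, an excess of 313 to 1286 counts. Over all 18 libraries the ratio was 1.00011 to 1.13. The log2 fold change was -3.48 ± 0.31 (SE) for each of the pair (adjusted p = 4.31e-06 for the antisense row, edgeR quasi-likelihood test). Their level was 11.2-fold lower in poly(A)-depleted libraries. How the counting treated strand is not given in the sources used here, and reads from this gene and from its antisense row cannot be told apart. Without the pair, the exonic antisense share was 19.4% ± 0.151 in poly(A)-depleted RNA and 19.7% ± 0.0798 in rRNA-depleted RNA, and that of annotated genes was 73.6% ± 0.754 in poly(A)-depleted RNA and 77.9% ± 0.0342 in rRNA-depleted RNA.

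Counted row by row, nearly every intergenic lncRNA that changed was higher in poly(A)-depleted RNA. Of the 9849 tested, 7628 rose and 241 fell at an adjusted p under 0.05, and 1980 were not called. Over all classes 71.7% of rows were called, 38.9% higher and 32.8% lower. The median log2 fold change of intergenic rows was 1.46 (quartiles 1.13 to 1.78), and it was 1.71 above the median of all annotated genes. Against genes of like abundance the difference was 0.51, 0.34, 0.74, 2.05 and -0.16 from the lowest range of level to the highest, as described below. These ranges include rows that entered the test through 1 kind of library alone. Of 212 intronic sense lncRNAs, 111 rose and 16 fell, that is 52.4% and 7.55%, against 77.4% and 2.45% of intergenic rows. Their median was 1.14, which was 1.38 above that of all genes, although not above that of genes of like abundance at low levels, as given below.

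Annotated genes and exonic antisense lncRNAs divided in both directions. Of 25243 genes tested, 7594 rose and 10593 fell, with a median of -0.25 (quartiles -0.87 to 1.06). Of 12301 exonic antisense rows, 3233 rose and 4890 fell, with a median of -0.27, only -0.02 from that of genes. Of 597 intronic antisense rows, 172 rose and 75 fell, with a median of -0.01. This was 0.23 above that of all genes, but below that of genes of like abundance in 3 of 4 ranges of level, as given below.

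The direction of the intergenic lncRNAs was the same under all 4 scalings, whereas that of genes and exonic antisense rows turned. With TMM factors from genes only, 9153 genes rose and 7484 fell (background 67.7% of all rows called, 45.1% higher and 22.7% lower), and exonic antisense rows gave 4079 higher and 3218 lower. Library size only gave 13840 genes higher and 2611 lower (background 69.3% of all rows called, 61.5% higher and 7.82% lower). Median-of-ratios factors gave 6993 genes higher and 11566 lower (background 72.5% called, 36.3% higher and 36.2% lower). A scaling shifts all rows nearly alike, so calls shared by all 4 scalings were those of the most extreme scaling in each direction. They equalled the higher calls with median-of-ratios factors and the lower calls with library size only, and are not separate evidence. Of intergenic rows 7315, or 74.3%, were called higher and 70 lower, against 36.3% and 7.82% of all rows. The corresponding counts were 6993 higher and 2611 lower for genes, 2927 and 1076 for exonic antisense, 154 and 10 for intronic antisense, and 107 and 3 for intronic sense rows. Set against the mean log2 level (CPM plus 0.5) of the rRNA-depleted libraries, or of the other 2 for a library of that kind, the intergenic median stood 1.38, 1.48 and 1.14 above the gene median in the 3 poly(A)-depleted libraries. It stood at -0.04, 0.09 and -0.06 in the 3 rRNA-depleted ones, so each poly(A)-depleted library showed the difference on its own. The plot of class medians under the 4 scalings shows the columns shifting together while their spacing is kept.

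**Figure D2:**
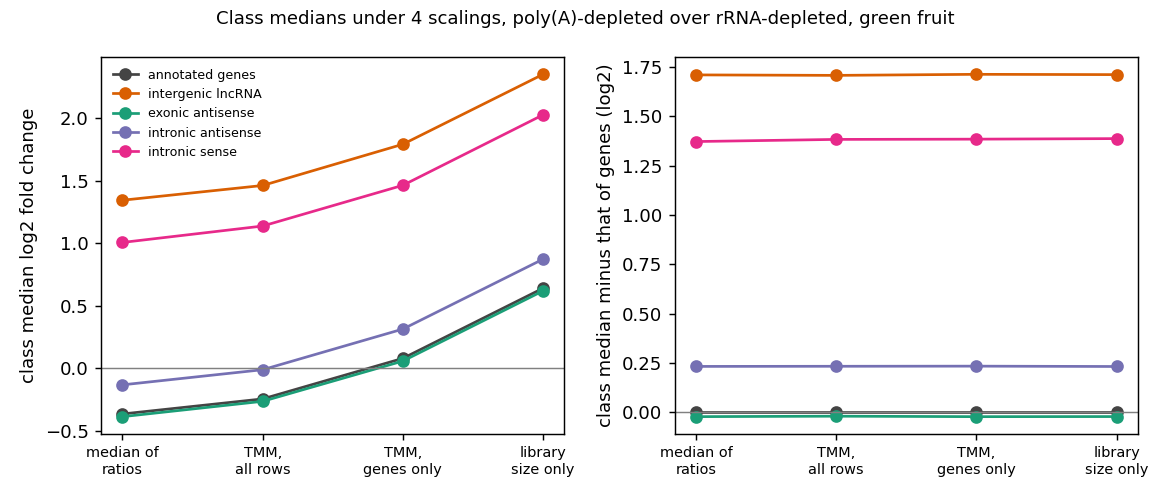
Class medians of the log2 fold change (poly(A)-depleted over rRNA-depleted) under 4 scalings on the left, and the same medians minus that of annotated genes on the right. The gene median ran from -0.37 to 0.64 over the scalings, while the intergenic lncRNAs stayed about 1.71 above it, not matched for abundance.

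Rows could enter the test through one kind of library alone. The low-count filter passed 2610 intergenic rows only through the poly(A)-depleted libraries and 50 only through the rRNA-depleted ones. It works on CPM before the TMM factors, and for such rows it favoured a difference without requiring one. Among the 6886 that reached the filter's level in both kinds, 5938 were higher and 227 lower, with a median of 1.41. A further 4198 of the 19247 intergenic rows had 0 counts in all 6 green libraries, and the rest of those not tested had too few. The corresponding numbers of rows in both kinds were 22841 genes (6438 higher, 10530 lower), 11311 exonic antisense (2751 and 4864), 438 intronic antisense (128 and 66) and 128 intronic sense (78 and 15).

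Over all rows tested, not matched for abundance, intergenic lncRNAs and annotated genes differed in the shape of their distributions as well as in their medians. Annotated genes had 2 peaks, at a log2 fold change of -0.75 to -0.50 and of 1.25 to 1.5, with fewer rows near 0.5 between them. Exonic antisense lncRNAs had peaks in the same places. Intergenic lncRNAs had 1 peak, at 1.25 to 1.5, the position of the upper peak of genes. With a dividing value of 0.5, chosen after the values were seen, 35.0% of genes and 31.1% of exonic antisense rows lay in the upper group, as did 38.0% of intronic antisense, 67.5% of intronic sense and 89.3% of intergenic rows. Genes of the upper group had a median of 1.34 and those of the lower group of -0.69, a gap of 2.04 that does not move with the scaling. Intergenic rows of the upper group had a median of 1.52. The 3902 genes at 0.5 to 2 CPM had a median of 1.25, and the 7445 genes at 10 to 50 CPM one of -0.75. Only 521 intergenic rows lay at 10 to 50 CPM. Whether the shapes differ between rows of like level was not tested. The plot of log2 fold changes by class shows these peaks, whose place on the axis, but not their distance, moves with the scaling.

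**Figure D3:**
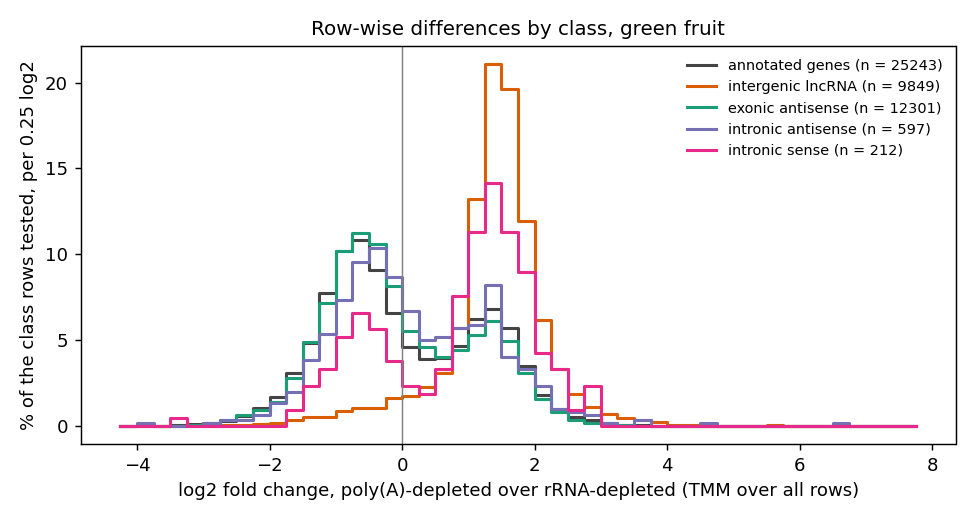
Distribution of log2 fold changes (poly(A)-depleted over rRNA-depleted, TMM over all rows; percent of the rows tested in a class per 0.25 log2) for the row classes. Genes and exonic antisense rows show peaks near -0.6 and near 1.4, and intergenic lncRNAs only the upper one, not matched for abundance.

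Among genes the difference turned with abundance, while among intergenic lncRNAs it stayed high over most of the range. Levels here are mean normalised CPM over the 6 green libraries, not corrected for length. The ranges hold all rows tested, also those that passed the filter through 1 kind of library. Only the poly(A)-depleted libraries passed 2610 intergenic rows and 1945 genes, and only the rRNA-depleted ones 50 and 134. A comparison by level within rows that passed in both kinds was not made. The median log2 fold change of genes was 0.74 under 0.5 CPM, 1.25 at 0.5 to 2 CPM, 0.70 at 2 to 10, -0.75 at 10 to 50 and -0.93 over 50 CPM. That of intergenic rows was 1.25, 1.59, 1.44 and 1.30 over the first 4 ranges. Intergenic rows thus stood 0.34 above genes at 0.5 to 2 CPM, 0.74 above at 2 to 10 and 2.05 above at 10 to 50 CPM. With library size only, the gene median was 0.14 at 10 to 50 CPM and -0.05 over 50 CPM, and the intergenic one was 2.19 at 10 to 50 CPM.

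Only 25 intergenic rows exceeded 50 CPM, and these went with the genes. Of them 20 fell and 2 rose, with a median of -1.09, which was -0.16 from that of genes at the same level. Intronic rows stood lower against genes of the same level than against all genes. The median of intronic antisense rows minus that of genes was -0.44 under 0.5 CPM, -1.55 at 0.5 to 2, -0.46 at 2 to 10 and 0.21 at 10 to 50 CPM (85, 275, 216 and 21 rows). For intronic sense rows it was -0.98, -0.08, 0.63 and 1.11 over the same ranges (30, 97, 77 and 8 rows). Exonic antisense rows turned with level as genes did, with medians of 0.51, 1.09, 0.06, -0.71 and -1.01 from the lowest range to the highest. They stood 0.64 below genes at 2 to 10 CPM and within 0.23 of them elsewhere. With library size only, their median over 50 CPM was -0.13. The plot of differences by class and level shows the gene and antisense lines falling past 10 CPM and the intergenic line remaining high up to 50 CPM.

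**Figure D4:**
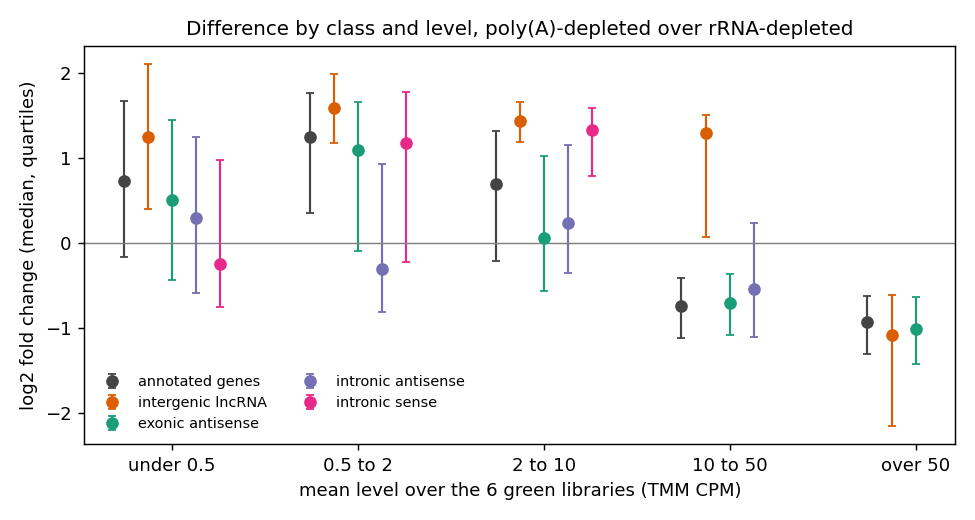
Median log2 fold change (poly(A)-depleted over rRNA-depleted, TMM over all rows) by class and by mean level over the 6 green libraries (CPM, 5 ranges), with quartiles as bars, for ranges of at least 20 rows. At 10 to 50 CPM genes stood at -0.75 and intergenic lncRNAs at 1.30.

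Abundant genes that were higher in poly(A)-depleted RNA came mostly from one contig. Of 3356 genes over 50 CPM, 57 rose, and 38 of these were among the 65 such genes whose IDs place them on contig 1, outside the numbered chromosomes. Contig 1 genes over 50 CPM had a median log2 fold change of 0.91, with 10 lower. The 3270 abundant genes on numbered chromosomes had a median of -0.95, with 13 higher and 3024 lower. Together, contig 1 genes took 4.06 to 4.29% of the poly(A)-depleted and 2.31 to 2.37% of the rRNA-depleted libraries, with no overlap.

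The rows described one by one below were taken from those that were called, whose groups did not overlap and whose higher group averaged at least 10 CPM for genes, 2 CPM for intergenic and exonic antisense rows and 0.5 CPM for intronic rows. Their separation is therefore part of the choice, and largest and most abundant rank rows within these limits, the most abundant among changes of at least 1 log2 unit. FvH4_c20g00010 had the largest rise among genes. Its level was 11.9, 12.0 and 8.12 CPM in poly(A)-depleted RNA, against 0.48, 0.16 and 1.02 CPM in rRNA-depleted RNA. The rRNA-depleted libraries varied among themselves, and the log2 fold change was 4.32 ± 0.44 (adjusted p = 1.08e-05, edgeR), which was 5.12 without rRNA-depleted replicate 3. FvH4_c3g00060, the most abundant gene among those at least 1 log2 unit higher, had 1594, 1254 and 1030 CPM in poly(A)-depleted RNA, against 577, 528 and 460.5 CPM in rRNA-depleted RNA. Its log2 fold change was 1.31 ± 0.19 (adjusted p = 9.88e-05, edgeR). FvH4_2g24430 fell most, with 13.1, 10.3 and 14.1 CPM in poly(A)-depleted RNA, against 194, 206 and 194 CPM in rRNA-depleted RNA. It was 15.9-fold lower, at -3.99 ± 0.16 (adjusted p = 9.44e-08, edgeR).

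Over all intergenic rows tested, the median difference varied little with length or chromosome. The median log2 fold change was 1.49, 1.46 and 1.45 in 3 length groups of like size, from the shortest to the longest exonic length. The share called higher went up over the same groups, at 61.8, 80.4 and 90.2%, as did the median level, at 1.11, 2.27 and 4.86 CPM. The median fold change was 1.41 to 1.48 on the 7 chromosomes. Unspliced rows of 1 exon, 9389 of those tested, gave 7325 higher, 215 lower and a median of 1.47. The 460 rows with 2 or more exons gave 303 higher, 26 lower and a median of 1.24.

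The 241 intergenic rows that fell differed from those that rose in level and in splicing. Their median level per kilobase of exon was 4.18 CPM in poly(A)-depleted RNA and 9.27 CPM in rRNA-depleted RNA. For the rows that rose it was 2.34 CPM in poly(A)-depleted RNA and 0.785 CPM in rRNA-depleted RNA. Spliced rows made up 10.8% of those that fell and 3.97% of those that rose, and the median exonic length was 1387 bases for those that fell and 1739.5 for those that rose. These are descriptions of rows picked by the same contrast and carry no test. Of all intergenic rows 2.45% fell. The next intergenic row after one that fell also fell in 0 of 4 cases where the rows overlapped, in 6 of 28 where it lay under 1 kb away, at 1 to 5 kb in 8 of 38, at 5 to 20 kb in 5 of 71 and beyond 20 kb in 1 of 100.

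LINC.XLOC_025294 (chromosome 6, 27224850 to 27225733, plus strand, 884 bases) had the largest rise among intergenic rows within the limits above. It had 2.25, 3.46 and 2.18 CPM in poly(A)-depleted RNA, against 0.11, 0.17 and 0.19 CPM in rRNA-depleted RNA. The log2 fold change was 4.02 ± 0.47 (adjusted p = 2.58e-05, edgeR). LINC.XLOC_026309 (chromosome 6, 425861 to 440435, minus strand), unspliced over 14575 bases, was the most abundant of those at least 1 log2 unit higher. Its level was 92.4, 89.7 and 66.2 CPM in poly(A)-depleted RNA, against 44.0, 44.2 and 35.9 CPM in rRNA-depleted RNA. The log2 fold change was 1.0 ± 0.16 (adjusted p = 0.0002, edgeR).

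LINC.XLOC_024314 (chromosome 6, 14775015 to 14775435, plus strand, 421 bases) fell most in its class. It had 7.43, 4.85 and 6.03 CPM in poly(A)-depleted RNA, against 118, 112 and 88.9 CPM in rRNA-depleted RNA. The level was 17.4-fold lower in poly(A)-depleted RNA, at -4.12 ± 0.19 (adjusted p = 1.62e-07, edgeR). LINC.XLOC_026976 (chromosome 6, 8574878 to 8576845, minus strand, 1968 bases) was the most abundant that fell. It had 120.4, 111 and 116 CPM in poly(A)-depleted RNA, against 716, 680.2 and 528 CPM in rRNA-depleted RNA. Per kilobase its mean level was 58.8 CPM in poly(A)-depleted RNA and 326 CPM in rRNA-depleted RNA, at a log2 fold change of -2.47 ± 0.16 (adjusted p = 6.27e-07, edgeR).

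Length accompanied the difference among antisense lncRNAs, unlike intergenic ones. The median log2 fold change of exonic antisense rows was -0.50, -0.21 and -0.00099 from the shortest to the longest of 3 length groups of like size. Intronic antisense rows covered a wider range, with -0.66 (9 higher, 44 lower) in the shortest group, 0.06 in the middle one and 0.94 (118 higher, 13 lower) in the longest. With library size only all values stand about 0.89 higher. The median level also went up over these groups, at 3.90, 5.17 and 8.59 CPM for exonic and 0.80, 1.38 and 3.19 CPM for intronic antisense rows. Length and level were not separated. Of 10627 exonic antisense rows compared, 352, or 3.31%, had an annotated gene on the same chromosome with counts within 10% in all 18 libraries, and 0 had one on another chromosome. These 352 rows gave 108 higher and 169 lower, with a median of -0.44, and their partner genes also had a median of -0.44. These rows do not include exonAS.XLOC_011569, whose ratio to its gene was 1.13 in 1 brown library and which alone held 3.62 to 6.19% of exonic antisense counts in poly(A)-depleted RNA and 21.3 to 30.4% in rRNA-depleted RNA. They made up 5.75% of the exonic antisense counts in poly(A)-depleted RNA and 7.63% in rRNA-depleted RNA.

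exonAS.XLOC_000181 (chromosome 1, 2894239 to 2895883, plus strand) fell most among exonic antisense rows. It had 42.1, 28.8 and 31.8 CPM in poly(A)-depleted RNA, against 521, 562 and 544 CPM in rRNA-depleted RNA. It was 15.8-fold lower in poly(A)-depleted RNA, at -3.99 ± 0.18 (adjusted p = 1.62e-07, edgeR). exonAS.XLOC_009510 (chromosome 3, 23267860 to 23269995, plus strand) had the largest rise within those limits, from few counts. It had 0.60, 2.97 and 2.83 CPM in poly(A)-depleted RNA, against 0.09, 0.49 and 0 CPM in rRNA-depleted RNA. The closest libraries nearly touched, and the log2 fold change was 3.36 ± 0.91 (adjusted p = 0.0059, edgeR), or 5.41 without rRNA-depleted replicate 2. exonAS.XLOC_025280 (chromosome 6, 27041620 to 27042548, plus strand) was the most abundant of those at least 1 log2 unit higher, with 115, 101 and 236 CPM in poly(A)-depleted RNA, against 85.1, 54.9 and 73.7 CPM in rRNA-depleted RNA. Poly(A)-depleted replicate 3 stood above the other two, and the log2 fold change was 1.08 ± 0.28 (adjusted p = 0.00453, edgeR).

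Of the intronic antisense rows, intronAS.XLOC_027416 (chromosome 6, 14152392 to 14152660, minus strand, 269 bases) fell most. It had 0.87, 0.54 and 1.44 CPM in poly(A)-depleted RNA, against 12.1, 12.6 and 13.7 CPM in rRNA-depleted RNA. It was 13.5-fold lower, at -3.75 ± 0.27 (adjusted p = 1.15e-06, edgeR). intronAS.XLOC_017375 (chromosome 4, 18436689 to 18437267, minus strand), the most abundant that fell, had 17.7, 23.3 and 34.0 CPM in poly(A)-depleted RNA, against 63.8, 56.7 and 59.9 CPM in rRNA-depleted RNA. Poly(A)-depleted replicate 3 was closest to the rRNA-depleted level, and the log2 fold change was -1.27 ± 0.20 (adjusted p = 0.000199, edgeR), but with library size only the value was -0.39 and the call was lost (adjusted p = 0.0803). intronAS.XLOC_001433 (chromosome 1, 18983016 to 18986976, plus strand, 3961 bases) rose, with 25.8, 19.2 and 15.8 CPM in poly(A)-depleted RNA, against 9.41, 9.32 and 9.89 CPM in rRNA-depleted RNA, a log2 fold change of 1.09 ± 0.18 (adjusted p = 0.000267, edgeR). intronAS.XLOC_020424 (chromosome 5, 22888749 to 22889088, plus strand) had the largest rise within the limits. It had 1.15, 0.72 and 0.84 CPM in poly(A)-depleted RNA, against 0, 0.19 and 0 CPM in rRNA-depleted RNA. Its log2 fold change was 3.62 ± 1.03 (adjusted p = 0.00765, edgeR), and 7.79 without rRNA-depleted replicate 2, where the remaining rRNA-depleted libraries were at 0 and the value depends on the prior count.

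Of the intronic sense rows, INTRONIC.XLOC_006174 (chromosome 2, 7023273 to 7033826, minus strand, 10554 bases) was the most abundant of those at least 1 log2 unit higher. It had 26.5, 35.6 and 28.0 CPM in poly(A)-depleted RNA, against 11.2, 11.3 and 9.96 CPM in rRNA-depleted RNA. Libraries of a kind lay close together, and the log2 fold change was 1.48 ± 0.15 (adjusted p = 1.12e-05, edgeR). INTRONIC.XLOC_002850 (chromosome 1, 14338745 to 14339889, minus strand) had the largest rise within the limits, with 1.97, 2.25 and 1.11 CPM in poly(A)-depleted RNA, against 0.30, 0.24 and 0.12 CPM in rRNA-depleted RNA. Poly(A)-depleted replicate 3 was the lowest of its kind, and the log2 fold change was 3.0 ± 0.56 (adjusted p = 0.000601, edgeR). INTRONIC.XLOC_031327 (chromosome 7, 3064057 to 3071497, minus strand, 2 exons) was the most abundant that fell, with 25.7, 24.8 and 33.5 CPM in poly(A)-depleted RNA, against 73.8, 64.6 and 72.9 CPM in rRNA-depleted RNA. The log2 fold change was -1.33 ± 0.15 (adjusted p = 1.94e-05, edgeR), and -0.45 with library size only.

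INTRONIC.XLOC_033033 (chromosome 7, 23862296 to 23863033, minus strand, 2 exons) had the largest fall in its class and rested on few counts. It had 0, 0 and 0.19 CPM in poly(A)-depleted RNA, against 0.75, 0.70 and 0.56 CPM in rRNA-depleted RNA, or 4 counts in all in poly(A)-depleted RNA and 97 in rRNA-depleted RNA. The log2 fold change was -3.37 ± 0.99 (adjusted p = 0.00928, edgeR). The call was lost without poly(A)-depleted replicate 2 (-2.81, adjusted p = 0.0503, edgeR), and without poly(A)-depleted replicate 3 the value was -7.65, with both remaining libraries at 0. With any rRNA-depleted library left out, the row did not pass the low-count filter and was not tested. The plot of named lncRNA rows by library gives these levels on one scale, where the distance between the kinds of library varies widely between rows.

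**Figure D5:**
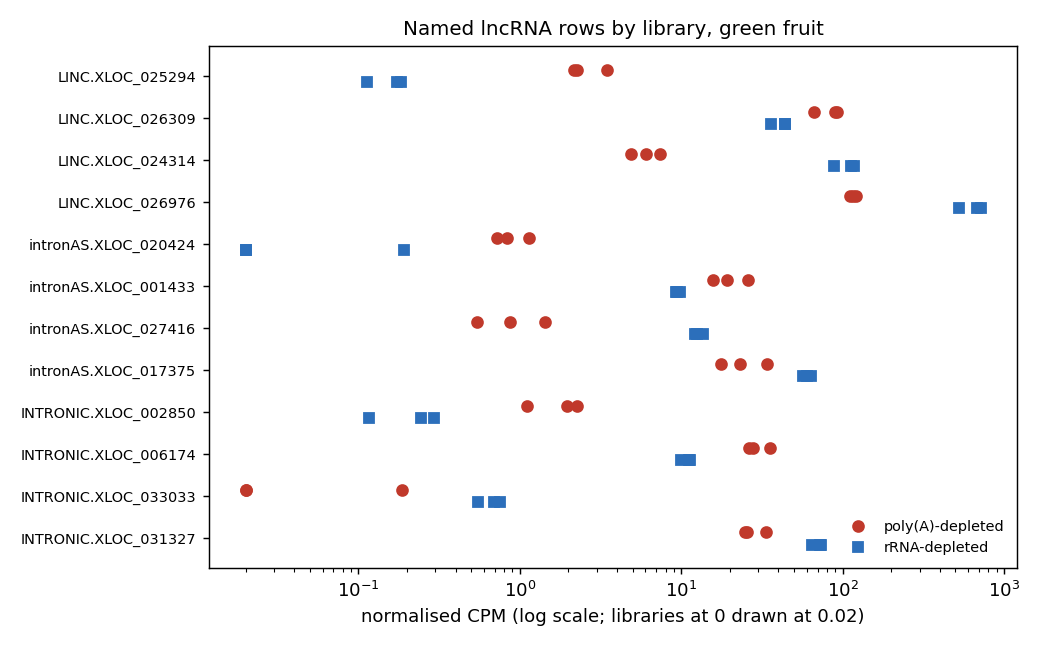
Normalised CPM (log axis; libraries at 0 drawn at the left edge) of the lncRNA rows named by rule in the 6 green libraries, 1 row per line, with poly(A)-depleted and rRNA-depleted libraries in different colours. LINC.XLOC_024314 lies at 4.85 to 7.43 CPM in poly(A)-depleted and 88.9 to 118 CPM in rRNA-depleted libraries.

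With library totals made equal, more rows of every class were detected in poly(A)-depleted RNA. The most abundant rows took a larger part of the rRNA-depleted totals, as given above. Whether this accounts for the difference in rows detected was not tested. With each library thinned to 15.7 M counts, 9346 ± 254 intergenic rows had at least 10 counts in poly(A)-depleted libraries and 5965 ± 314 in rRNA-depleted ones (SD, n = 3 each). Genes detected numbered 24609 ± 247 in poly(A)-depleted RNA and 21868 ± 257 in rRNA-depleted RNA, and exonic antisense rows 12011 ± 109 in poly(A)-depleted RNA and 10864 ± 113 in rRNA-depleted RNA. The counts were 500 ± 4.73 intronic antisense rows in poly(A)-depleted RNA and 401 ± 1.53 in rRNA-depleted RNA, and for intronic sense rows they were 186 ± 5.03 in poly(A)-depleted RNA and 116 ± 5.51 in rRNA-depleted RNA. No class overlapped between kinds (exact permutation p = 0.1 each, the smallest possible). As deposited, with the rRNA-depleted libraries much deeper, 9382 ± 243 intergenic rows were detected in poly(A)-depleted RNA and 9312 ± 510 in rRNA-depleted RNA (exact p = 0.9). The other classes then turned, with differences, poly(A)-depleted minus rRNA-depleted, of -308 genes (exact p = 0.4), -121 exonic antisense (exact p = 0.5), -94 intronic antisense and -25 intronic sense rows (exact p = 0.1 each).

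The same comparison at the other stages used other libraries. At the yellow stage 67.7% of 49630 rows were called, 35% higher and 32.8% lower. Intergenic lncRNAs gave 7318 higher, 308 lower and a median 2.02 above that of all genes, not matched for abundance. At the brown stage 5.87% of 46800 rows were called, 1.65% higher and 4.22% lower. Intergenic lncRNAs gave 279 higher, 44 lower and a median 1.05 above that of all genes, again not matched for abundance. Of the intergenic rows higher in green fruit and tested at yellow, 99.3% had the same sign there, against 93.6% of all intergenic rows, and 83.5% were called the same way, against 67.8% of all intergenic rows. At brown 98.4% had the same sign, against 92.1% of all intergenic rows, and 3.62% were called the same way, near the 2.85% of all intergenic rows called higher there.

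Intergenic rows that fell in green fruit had a sign that few rows of the class shared at the other stages. Of 229 tested at yellow, 219 were also negative, or 95.6%, against 6.45% of all intergenic rows. There 177 were called lower, or 77.3%, against 2.85% of all intergenic rows. Of 223 tested at brown, 200 were negative, or 89.7%, against 7.89% of all intergenic rows. Only 34 were called lower at brown, or 15.2%, against 0.450% of all intergenic rows. Among genes, 96.0% of those higher in green were positive at yellow, against 45.2% of all genes, and 94.5% of those lower in green were negative, against 54.8% of all genes. LINC.XLOC_024314 was also lower at yellow (log2 fold change -6.92, adjusted p = 0.000567, edgeR) and at brown (-4.86, adjusted p = 0.0192, edgeR).

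A dependence of the difference on stage was rarely detected in the fit without a replicate block, but for many more rows with one. The green difference minus the mean of the yellow and brown differences was called for 118 of 52101 rows, or 0.226% (0.117% higher and 0.109% lower), which were 42 genes each way, 5 intergenic rows higher and 2 lower, and 14 exonic antisense rows higher and 13 lower. These counts were sensitive to single libraries: leaving out any 1 green library left 3 to 15 genes higher and 1 to 16 lower. They also depended on pairing: with a replicate block, 5548 of the 26494 genes tested were higher and 571 lower. Of the 25607 lncRNAs tested, 2886 were then higher and 250 lower, so how often stage mattered was not settled. No intronic row of either kind was called in the edgeR test without a block, with 34 antisense and 13 sense ones at an unadjusted p under 0.05. LINC.XLOC_013279 (chromosome 3, 35724422 to 35726088, minus strand) had 4.35, 4.16 and 3.42 CPM in green poly(A)-depleted RNA, against 1.84, 1.53 and 2.20 CPM in green rRNA-depleted RNA, on the scale of the fit to 18 libraries. At yellow the order was the opposite, with 5.48, 5.28 and 4.56 CPM in poly(A)-depleted RNA, against 35.7, 26.5 and 26.3 CPM in rRNA-depleted RNA. At brown it had 6.24, 9.23 and 4.75 CPM in poly(A)-depleted RNA, against 11.1, 15.6 and 11.1 CPM in rRNA-depleted RNA. Its stage difference was 2.82 ± 0.38 on the log2 scale (adjusted p = 0.00309, edgeR). The rRNA-depleted level moved most with stage, while the poly(A)-depleted level stayed within 3.42 to 9.23 CPM.

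LINC.XLOC_012765 (chromosome 3, 29158481 to 29159313, minus strand) differed in the other direction. It had 5.71, 6.28 and 5.30 CPM in green poly(A)-depleted RNA, against 17.9, 22.4 and 21.2 CPM in green rRNA-depleted RNA. At yellow it had 2.40, 3.03 and 1.91 CPM in poly(A)-depleted RNA, against 1.88, 0.50 and 1.98 CPM in rRNA-depleted RNA, so the groups overlapped there. At brown it had 0.48, 0.92 and 2.73 CPM in poly(A)-depleted RNA, against 0.16, 0.06 and 0.02 CPM in rRNA-depleted RNA. The stage difference was -4.27 ± 0.67 (adjusted p = 0.0103, edgeR). Without green poly(A)-depleted replicate 1 both values stayed about as large but missed the threshold (2.58, adjusted p = 0.0579 for LINC.XLOC_013279, and -4.41, adjusted p = 0.0618 for LINC.XLOC_012765). LINC.XLOC_012765 also missed it without replicate 2 (-4.45, adjusted p = 0.0540), and both did with library size only (1.96, adjusted p = 0.178, and -5.29, adjusted p = 0.0822).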

How the data were processed

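The authors deposited raw counts, which are whole numbers and were not normalised, as read from the values and per the file headers. Exon positions came from the transcript file that the authors deposited, printed as given. TopHat2 2.1.2, STAR 2.5.4b and Trim Galore 0.4.2 are listed, without roles, in the submitters' processing notes. Which program counted the reads, how it treated strand and which genome build it used was not given in the sources used here. All 18 columns matched a sample label.

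The 6 green libraries were fitted with edgeR 4.0.16 (R 4.3.3): rows kept by filterByExpr, TMM factors over all rows kept, the quasi-likelihood F test, and Benjamini-Hochberg adjustment over all 48202 rows, called at an adjusted p under 0.05. Normalised CPM use the same factors. Standard errors were derived from the F statistic. The yellow and brown stages had fits of their own. Stage dependence was a contrast in a fit to 18 libraries. Shares and numbers of rows detected were compared by two-sided exact permutation tests (SciPy 1.17.1). The fit was also run on simulated counts in which few rows changed. That run cannot check the scaling here, where 71.7% of rows were called.

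Rows were named by a rule: per class and direction, among called rows whose groups did not overlap and whose higher group averaged at least 10 CPM (genes), 2 CPM (intergenic and exonic antisense) or 0.5 CPM (intronic classes), the row with the largest change and the most abundant row with a log2 fold change of at least 1 in size. The abundant pair exonAS.XLOC_011569 and FvH4_3g20030 was added as known beforehand. For stage dependence, the intergenic row with the smallest adjusted p in each direction was named. The comparison, the classes and the rule were chosen with earlier results of these data known.

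The labels call the replicates biological, and do not say whether equal numbers share RNA. Deviations of green libraries with equal numbers correlated at 0.266, 0.193 and 0.287. The main fit and the exact tests were nevertheless unpaired, and pairing entered only through an alternative, the replicate block. With that block, 8151 genes were higher and 11394 lower in green fruit. Across stages 1 of 9 pairs gave -0.114, brown replicate 2, while brown replicates 1 and 3 gave 0.616 and 0.369. The main stage dependence contrast was also unpaired. Alternatives were 3 other scalings, DESeq2 1.42.0, 2 other filters, 2 stricter thresholds, thinning, a fit to 18 libraries, a replicate block, leaving out the abundant pair or antisense rows with a matching gene, and leaving out each green library. Library totals were 15.7 to 16.6 M counts in poly(A)-depleted and 57.1 to 76.9 M in rRNA-depleted libraries, and the precision of a row depends on its own counts.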

Additional observations from a re-analysis of the deposited data

Results flagged for a closer look

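Stage dependence was tested as the green log2 fold change minus the mean of the yellow and brown ones, and the intergenic rows below were the ones named from it. LINC.XLOC_013279 differed between stages by 2.82 on the log2 scale, with poly(A)-depleted RNA above rRNA-depleted RNA in green fruit and below it in yellow fruit. LINC.XLOC_012765 differed by -4.27, with poly(A)-depleted RNA below rRNA-depleted RNA in green fruit and above it in brown fruit, where the rRNA-depleted level was 0.02 to 0.16 CPM. Without green poly(A)-depleted replicate 1 the values were 2.58 and -4.41, and neither passed the threshold.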

How the results depend on the processing

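The call counts and medians of intergenic lncRNAs kept their direction under every alternative run. Fold changes are poly(A)-depleted over rRNA-depleted, and the cause of each shift below was not tested. With library size only, calls were 13840 genes higher and 2611 lower, 70 intergenic lower, 6582 exonic antisense higher and 1076 lower, 284 intronic antisense higher and 10 lower, and 3 intronic sense lower. Medians were then 0.64 for genes, 2.35 for intergenic, 0.62 for exonic antisense, 0.87 for intronic antisense and 2.03 for intronic sense rows. With TMM factors from genes, 3218 exonic antisense, 44 intronic antisense and 6 intronic sense rows were lower, and the medians in the same order were 0.078, 1.79, 0.056, 0.31 and 1.46. Median-of-ratios factors and DESeq2 both gave medians of -0.37 for genes, -0.39 for exonic antisense and -0.13 for intronic antisense rows.

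The fit to 18 libraries, which shares 1 estimate of spread with the yellow and brown stages, called fewer rows of each class. Of 12103 intergenic rows tested, 5289 were higher, or 43.7%, against 77.4% in the main fit, and 76 were lower. Genes gave 4023 higher and 2913 lower, or 26.2% called, against 72.0% in the main fit. Other calls were 1709 exonic antisense higher and 1267 lower, 85 intronic antisense higher and 12 lower, and 76 intronic sense higher and 3 lower. There 8 of the named rows missed the threshold, with adjusted p of 0.0539 to 0.346 (edgeR): FvH4_c3g00060, FvH4_3g20030, LINC.XLOC_026309, exonAS.XLOC_009510, exonAS.XLOC_025280, exonAS.XLOC_011569, intronAS.XLOC_017375 and INTRONIC.XLOC_033033. An adjusted p under 0.01 left 107 intronic antisense rows higher and 39 lower, and 8 intronic sense rows lower. A minimum log2 fold change of 1 in size left 4845 genes, 147 intergenic, 2205 exonic antisense and 9 intronic sense rows lower.

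The exonic antisense median minus that of genes was -0.052 with no low-count filter, 0.0063 with at least 1 CPM in 3 libraries, -0.048 in the fit to 18 libraries and -0.0015 with thinned libraries. With at least 1 CPM in 3 libraries, intronic antisense rows had a median of 0.27, or 0.53 above genes, and intronic sense rows 1.37, or 1.63 above. Thinned libraries gave 0.10 and 0.32 for intronic antisense, and 1.35 and 1.56 for intronic sense rows. With no filter the intronic sense median was 1.0, or 1.21 above genes.

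Leaving out each green library in turn gave 49 to 68 intronic antisense and 9 to 15 intronic sense rows lower. The medians were -0.072 to 0.13 for intronic antisense, or 0.16 to 0.36 above genes, and 0.94 to 1.26 for intronic sense, or 1.14 to 1.52 above genes. The exonic antisense median minus that of genes was -0.037 to -0.013.

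Without the abundant pair, the differences in share were -4.31 percentage points for genes, -0.33 for exonic antisense and 0.0905 for intronic antisense rows. Differences in rows detected, for genes, intergenic, exonic antisense and intronic antisense rows, were 796, 2002, 186 and 51.3 at 1 count, 6229, 5012, 2812 and 135 at 50 counts, and -308, 70.3, -121 and -94 with libraries as deposited. Intronic sense rows gave 35.7 at 1 count and -25 as deposited.

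Stage dependence was the least stable result. The 42 genes higher and 42 lower, and 19 lncRNAs higher and 15 lower, became 3, 3, 1 and 1 with library size only. TMM factors from genes gave 67 genes lower, 12 lncRNAs higher and 26 lower. Leaving out each green library gave 3 to 15, 1 to 16, 0 to 5 and 0 to 6. A replicate block gave 5548, 571, 2886 and 250. Brown libraries of equal number correlated at 0.616, -0.114 and 0.369, so whether the numbers pair them is not settled. In the comparison within green fruit, the replicate block moved no count by over 1.5 times. Calls were fewer among rare rows: 300 of 1111 intergenic rows below 0.5 CPM were called higher, against 4349 of 4698 at 2 to 10 CPM.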
